A study of Homo sapiens with 4 samples.

Results

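The S100 proteins are a family of small calcium-binding proteins, and 10 of their genes were followed here by gene symbol (S100A2, S100A3, S100A4, S100A6, S100A10, S100A11, S100A13, S100A14, S100A16 and S100P) among 34608 genes counted. The RNA came from A549, a long-established line of human lung adenocarcinoma cells, and was sequenced after 3 h with 100 nM dexamethasone (dex), a synthetic glucocorticoid, or with 0.02% ethanol, its vehicle (etoh). Each group had 2 libraries, and the aligned totals were 9828448 and 11138944 reads for dex, against 9764159 and 11887526 reads for etoh. The question is how RNA levels of these genes differ after a short hormone exposure. Whether the replicates were grown as separate cultures is not stated, and every p-value here therefore reflects library-to-library spread that could be technical.

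Each S100 protein carries a pair of helix-loop-helix calcium-binding motifs called EF-hands and acts mostly as a dimer. Calcium opens a surface on most members, which then bind and regulate targets such as annexins, the cytoskeleton and signalling proteins. Some are also secreted and signal through the receptor AGER. In epithelial tumours several members are known as markers of invasion or of differentiation state. The mature mRNAs are short, and most of the genes lie together on chromosome 1 in a region that also holds many epidermal differentiation genes.

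S100P rose most, to about 4 times its vehicle level, S100A3 and S100A13 rose by less than 2-fold, and S100A10 and S100A16 rose slightly. S100A6 and S100A4, which had the highest levels per length, did not pass the test, nor did S100A11 and S100A2, and S100A14 had too few reads to be tested. Of the 9 genes tested, 5 were called higher in dex and 0 lower by edgeR's quasi-likelihood test at a Benjamini-Hochberg adjusted p of 0.05, whereas 6.98% of all 14777 genes tested were called higher and 4.42% lower. Among the 4 genes not called, S100A6 alone had an unadjusted p under 0.05, and DESeq2 and limma-voom also called 0 of them lower. The median log2 fold change, dex over etoh, was 0.32 over the 9 genes and -0.00 over all genes tested. Because members and lists were chosen with earlier results of these data known, their shares and medians beside all genes are descriptive and not a test. The calls other than S100P depended on single libraries: 1 gene was called without dex replicate 1, 2 without etoh replicate 1, 4 without etoh replicate 2 and 5 without dex replicate 2.

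The promoter windows of S100P and S100A3 are shown because these genes had the largest increases. Each window runs from 250 bases before to 50 after a RefSeq start site (GRCh38.p14), and windows were found for 10 of the 10 genes. Capitals mark matches, on either strand, to TATAAA, to AGAACA (1 arm of the glucocorticoid receptor element) and to TGANTCA (the AP-1 site). The S100P window is chr4:6693628-6693927 on the plus strand and the S100A3 window is chr1:153549209-153549508 on the minus strand, both written 5′ to 3′.
S100P: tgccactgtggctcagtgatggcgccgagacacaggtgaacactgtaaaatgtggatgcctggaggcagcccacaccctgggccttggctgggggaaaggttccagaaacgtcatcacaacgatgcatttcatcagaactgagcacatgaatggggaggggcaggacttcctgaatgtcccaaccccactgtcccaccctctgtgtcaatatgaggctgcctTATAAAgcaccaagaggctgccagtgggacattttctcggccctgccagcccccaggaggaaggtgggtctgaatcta
S100A3: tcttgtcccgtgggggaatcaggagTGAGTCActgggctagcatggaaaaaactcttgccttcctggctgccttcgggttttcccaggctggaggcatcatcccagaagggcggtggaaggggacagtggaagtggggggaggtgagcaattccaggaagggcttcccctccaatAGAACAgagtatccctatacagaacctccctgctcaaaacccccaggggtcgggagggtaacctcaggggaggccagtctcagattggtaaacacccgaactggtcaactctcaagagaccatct

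In S100P the only marked match was TATAAA, at -28 from the start site, a word found in 11.5% of all 35116 promoter windows of this length. This RefSeq window lies inside the S100P gene of GENCODE 29, from 6693069 to 6697170, and sequence before that GENCODE start was not searched. In S100A3 the matches were AGAACA at -75 and TGANTCA at -225, words found in 14.8% and 7.71% of all windows. The full palindromic receptor element, which holds AGAACA and its reverse complement TGTTCT with 3 bases between them, was in 0 of the S100 windows and in 1 of all 35116. S100A4 also had TATAAA, at -31, and 1 of the 3 S100A13 windows had it at -29. TGANTCA was also at -52 in 1 of the 2 S100A2 windows. A match is a description of the letters, and receptor binding was not measured in these files.

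As a check of the treatment, 5 textbook glucocorticoid targets were read from the same fit, and all 5 were called higher. FKBP5, a co-chaperone of the receptor, had 232 and 229 CPM (counts per 1000000 aligned reads) in dex against 22.1 and 22.6 CPM in etoh. TSC22D3 had a log2 fold change of 4.45 (SE 0.13) and PER1 had 3.87 (SE 0.15). Epithelial markers fitted the label, with 5 of 5 (KRT8, KRT18, KRT19, EPCAM and CDH1) at a mean of at least 1 CPM. Their summed level was 7348 and 6286 CPM in dex against 3570 and 4155 CPM in etoh, nearly all of it KRT8 and KRT18, and its part in the S100 results was not tested. Of 6 alveolar type II markers, ABCA3 alone reached 1 CPM, SFTPA1 and SFTPA2 had no read, and NKX2-1, SFTPB and SFTPC had at most 4 reads in a library. The summed level of 5 myeloid markers was 6.35 to 8.65 CPM across all libraries (PTPRC had 1 read in all), and that of 4 fibroblast markers 14.3 to 23.6 CPM, mostly COL1A1. The 3 endothelial markers found in the count table (CDH5, KDR and VWF) summed to 0.252 to 1.02 CPM, with VWF at 0. A mean of at least 1 CPM was reached by 3 of the 5 myeloid, 2 of the 4 fibroblast and 0 of the 3 endothelial markers.

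S100P is secreted by epithelial and tumour cells, binds AGER and activates the membrane linker ezrin. It had 247 and 266 reads in the dex libraries, against 61 and 72 reads in the etoh libraries. Scaled to the aligned totals these were 25.1 and 23.9 CPM in dex and 6.25 and 6.06 CPM in etoh. Both dex libraries lay far above both etoh libraries, and the replicates of each group lay close together. The means were 24.5 ± 0.885 CPM in dex and 6.15 ± 0.135 CPM in etoh (SD, n = 2 each), a ratio of 3.98. The log2 fold change was 2.01 (SE 0.17, 95% interval 1.66 to 2.36), with an adjusted p of 1.3e-08 by edgeR. Across the 12 processing alternatives it lay between 1.97 and 2.06 and was called in each. The gene lies on chromosome 4 from 6693069 to 6697170 (GRCh38, GENCODE 29, plus strand), is the only member outside chromosome 1, and was counted on a single transcript of 1279 bases. No other gene of the annotation shared an exon or a 36-base stretch with it.

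**Figure D1:**
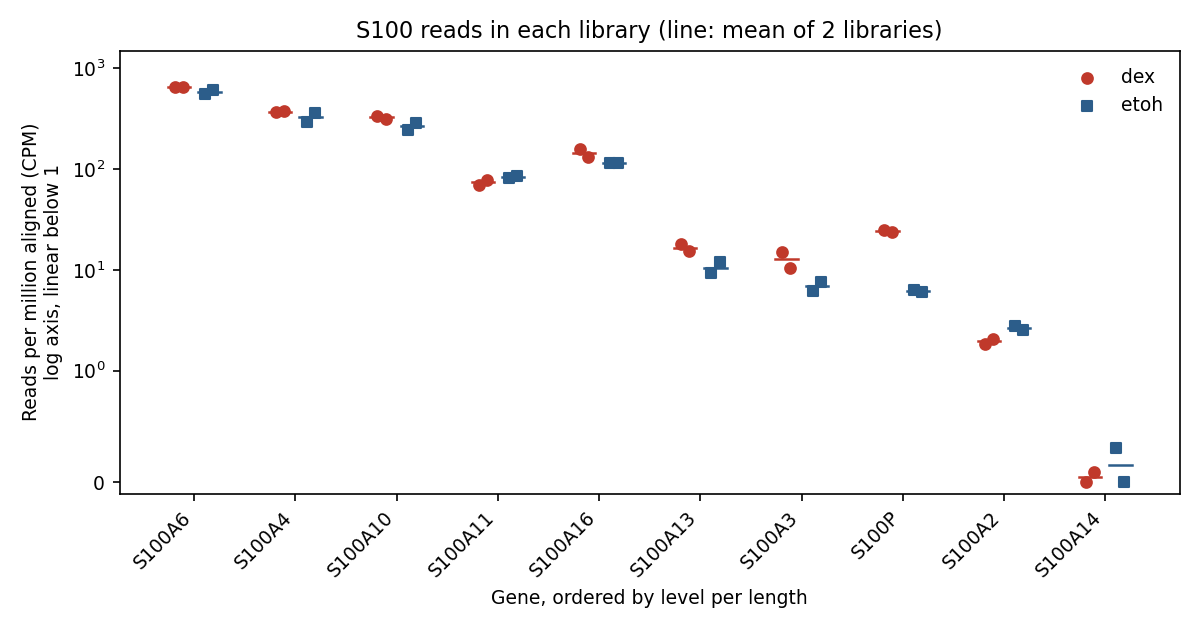
Counts per 1000000 aligned reads (CPM, log axis that is linear below 1) of each S100 gene in each library, dex as red circles left of etoh as blue squares, with a line at each mean of 2 libraries and genes ordered by level per length. The dex points of S100P, at 25.1 and 23.9 CPM, stand far above its etoh points, at 6.25 and 6.06 CPM, while for S100A6 and S100A4 the groups nearly touch.

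S100A3, a cysteine-rich member that also binds zinc and is best known from the hair cuticle, had 149 and 115 reads in dex against 60 and 91 reads in etoh. These were 15.2 and 10.3 CPM in dex and 6.14 and 7.66 CPM in etoh. The groups did not overlap, but dex replicate 1 was well above dex replicate 2. The log2 fold change was 0.89 (SE 0.21, 95% interval 0.44 to 1.33), with an adjusted p of 0.0071 by edgeR. Without dex replicate 1 it was 0.59 and did not pass, and DESeq2 did not call it at 0.89; over all alternatives the adjusted p lay between 4.6e-05 and 0.15. The body of S100A3 lies inside that of S100A4 on the same strand, with no shared exon. Per 100 reads of S100A4 in the same library, S100A3 had 4.13 and 2.72 reads in dex and 2.09 and 2.10 in etoh, so the pair differed in how much they changed most clearly in dex replicate 1.

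S100A13 takes part in the release of the growth factor FGF1, which leaves cells without a signal peptide. It had 176 and 172 reads in dex against 90 and 141 reads in etoh, or 17.9 and 15.4 CPM in dex and 9.22 and 11.9 CPM in etoh. Both dex libraries were higher, and etoh replicate 1 was the lowest of the 4. The log2 fold change was 0.67 (SE 0.18), with an adjusted p of 0.013 by edgeR. Its call was lost when dex replicate 1 was left out (0.56) or etoh replicate 1 was (0.52), with DESeq2 (0.67) and with the most counted transcript in place of the gene sum (0.71); over all alternatives the adjusted p lay between 0.0025 and 0.17. The assignment of its reads is uncertain. S100A1, on the opposite strand, shares 607 windows of 36 bases with it and had 1 and 1 reads in dex against 2 and 3 in etoh. The clone-named RP1-178F15.5, on the same strand, shares 670 windows and had 23 and 19 reads in dex against 19 and 19 in etoh.

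S100A10, also called p11, has lost calcium binding and is held in its active form, where it pairs with annexin A2 at the membrane and binds plasminogen. It had 341 and 318 CPM in dex, against 247 and 285 CPM in etoh. The groups did not overlap, with etoh replicate 1 lowest. The log2 fold change was 0.32 (SE 0.10, 95% interval 0.12 to 0.53), with an adjusted p of 0.036 by edgeR. Leaving out dex replicate 1 (0.27) or etoh replicate 1 (0.24) ended the call, and over all alternatives the adjusted p lay between 0.016 and 0.38. S100A16, a widely expressed member found in the nucleus and cytoplasm, had 157 and 132 CPM in dex, against 115 and 114 CPM in etoh. Dex replicate 1 was again the highest library. The log2 fold change of S100A16 was 0.36 (SE 0.11), with an adjusted p of 0.034 by edgeR. The call was lost with DESeq2 (0.35) and on leaving out any single library (0.22 to 0.38) other than dex replicate 2, where it was 0.48. Over all alternatives its adjusted p lay between 0.0040 and 0.44. S100A16 shares between 1 and 48 windows of 36 bases with each of 13 other counted genes.

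S100A6, or calcyclin, binds the ubiquitin ligase adaptor CACYBP. It had 660.3 and 658 CPM in dex against 552 and 611 CPM in etoh, with no overlap and with both dex libraries nearly equal. Its log2 fold change of 0.20 (SE 0.10, 95% interval 0.00 to 0.40) did not pass, with an adjusted p of 0.21 by edgeR. The antisense gene BX470102.3 overlaps an exon of S100A6 and had 9 and 29 reads in dex against 12 and 13 in etoh. S100A4, or metastasin, binds the heavy chain of non-muscle myosin. S100A4 had 367 and 380 CPM in dex against 294 and 365 CPM in etoh, where etoh replicate 2 lay next to the dex libraries and etoh replicate 1 stood below them. The log2 fold change of S100A4 was also 0.20 (SE 0.10, 95% interval -0.02 to 0.41), with an adjusted p of 0.26 by edgeR.

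S100A11, a partner of annexin A1 with a role in keratinocyte growth, had 69.4 and 78.9 CPM in dex, against 82.0 and 86.4 CPM in etoh. Both dex libraries were lower, but the log2 fold change of -0.17 (SE 0.11, 95% interval -0.39 to 0.06) did not pass, with an adjusted p of 0.39 by edgeR. S100A2, a nuclear member of epithelial cells that binds p53, had only 18 and 23 reads in dex against 27 and 30 reads in etoh. Its log2 fold change was -0.41 (SE 0.34, 95% interval -1.11 to 0.29). S100A14, a member of differentiated epithelia, had 0 and 1 reads in dex against 3 and 0 reads in etoh. A count of 3 reads corresponds to between 0.252 and 0.307 CPM in these libraries, so S100A14 was at or under what the depth can show and no fold is given.

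**Figure D2:**
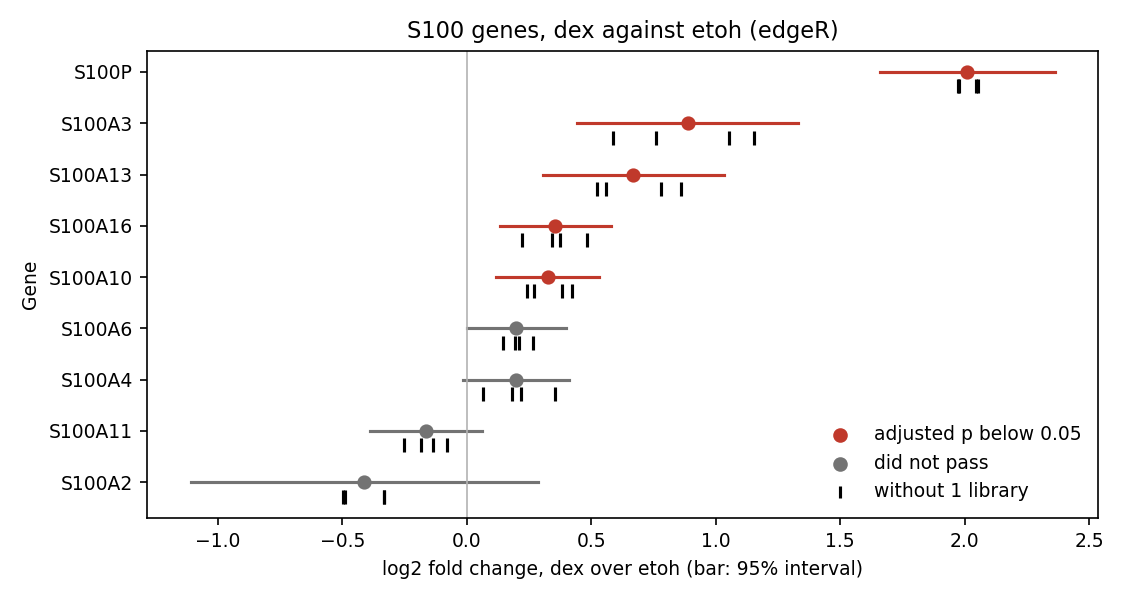
Log2 fold change, dex over etoh, of the 9 tested S100 genes with 95% intervals (edgeR), red where the adjusted p was below 0.05, and with black ticks for the value after leaving out each library in turn. S100P, at 2.01, keeps its ticks between 1.97 and 2.06, whereas the ticks of S100A3 run from 0.59 to 1.15.

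For 7 of the 10 genes both dex libraries lay above both etoh libraries in CPM, for 2 both lay below, and for S100A14 they overlapped. Over all genes tested, 24.5% had both dex libraries above and 28.8% had both below. The 10 genes together took 0.165% and 0.162% of the aligned reads in dex, against 0.132% and 0.149% in etoh. The log2 ratio of the group means was 0.22, or 0.14 without etoh replicate 1 and 0.32 without etoh replicate 2. With 2 libraries a group an exact permutation test cannot give a two-sided p under 0.333, so this share was not tested. S100A6, which was not called, held 39.9% and 40.7% of the S100 reads in dex and 42.0% and 41.0% in etoh. S100A4, also not called, and S100A10 held most of the rest. S100P held at most 1.52% in any library, so the share says little about it. In bulk RNA, fewer cells expressing a gene and less RNA per cell cannot be told apart.

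Levels of different genes were compared per length, as CPM per kilobase of transcript (RPKM, summed over the transcripts of a gene). S100A6 was highest, at 1051 and 1036 RPKM in dex and 858 and 966 RPKM in etoh, and was above S100A4 in every library. S100A4 had means of 659 RPKM in dex and 582 RPKM in etoh, and S100A10 had means of 402 RPKM in dex and 326 RPKM in etoh. As computed, the levels of S100A6, S100A4 and S100A10 did not overlap across the 4 libraries. The S100A10 level depends on how its reads were placed between transcripts of 1202 and 616 bases, which is not stated. Next came S100A11, with means of 125 RPKM in dex and 142 RPKM in etoh, and S100A16, with means of 137 RPKM in dex and 109 RPKM in etoh. Their order differed between groups, and their ranges overlapped. S100A13, S100A3 and S100P followed, and neighbouring genes in that order overlapped in their ranges over the 4 libraries. At its counted length of 1279 bases S100P had means of 19.2 RPKM in dex and 4.81 RPKM in etoh. At that length it was level with S100A3 in dex, at 17.6 RPKM, and below S100A3 in etoh, at 9.58 RPKM. The RefSeq start site of S100P lies inside its GENCODE gene, and a transcript from there could be shorter. A shorter length would raise the S100P level in both groups, so its place among these genes depends on the transcript length used. S100A2 lay below these, between 2.74 and 4.37 RPKM over the 4 libraries, and S100A14 was last.

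Ratios within a library do not depend on the scaling between libraries. Per 100 reads of S100A11, S100P had 36.2 and 30.3 reads in dex against 7.62 and 7.01 in etoh. On the same base S100A10 had 491 and 403 reads in dex against 301 and 330.3 in etoh. Per 100 reads of S100A4, S100A6 had 180 and 173 reads in dex against 188 and 167 in etoh. The most abundant pair thus kept a similar ratio in both groups, with overlap. Relative to S100A11, S100P and S100A10 were higher in both dex libraries. S100A11 itself had 69.4 and 78.9 CPM in dex against 82.0 and 86.4 CPM in etoh, and this lower base adds to both ratios. Per 100 reads of ANXA2, itself called higher, S100A10 had 8.50 and 9.59 reads in dex against 8.92 and 10.7 in etoh, with overlap. The S100A10 shift thus depends on the base chosen.

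On chromosome 1 the members form a pair and a cluster (GRCh38, GENCODE 29). S100A10 lies from 151982915 to 151994390 and S100A11 from 152032506 to 152047907. The other 7 lie 1487 kb further on, all on the minus strand, within 96.8 kb. In order these are S100A6 (from 153534599 to 153536244), S100A4 (from 153543613 to 153550136), S100A3 (from 153547329 to 153549372), S100A2 (from 153561108 to 153567890), S100A16 (from 153606886 to 153613145), S100A14 (from 153614255 to 153616986) and S100A13 (from 153618787 to 153631360). S100A3 and S100A16 are 57.5 kb apart, with S100A2 between them. Log2 fold changes along this cluster were 0.20, 0.20, 0.89, -0.41, 0.36, untested and 0.67 in that order, so called genes stood beside genes that were not called.

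**Figure D3:**
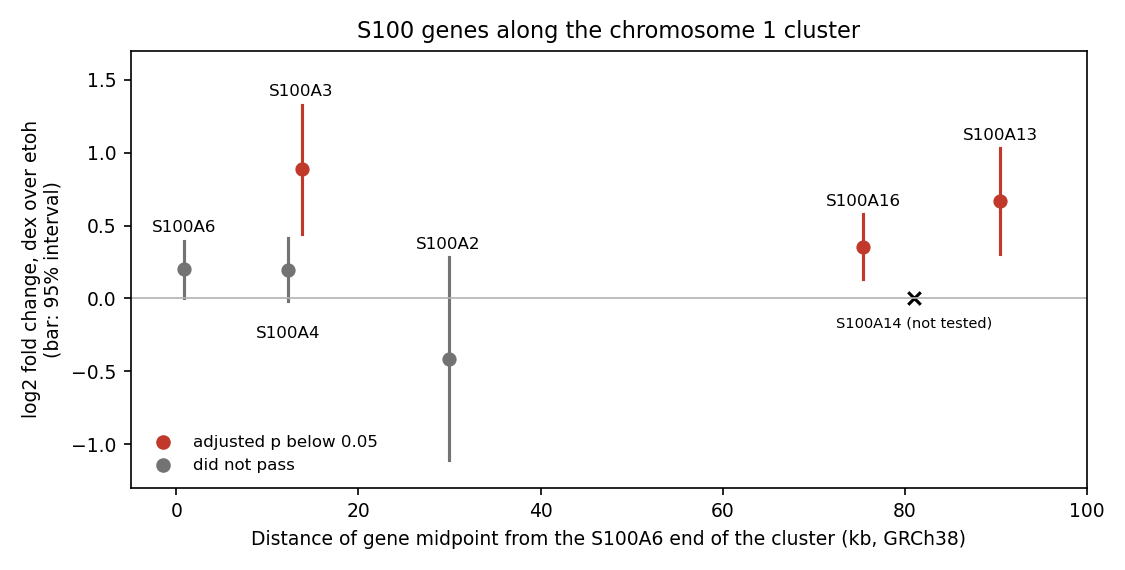
Log2 fold change, dex over etoh, with 95% intervals (edgeR) of the S100 genes of the chromosome 1 cluster against the distance of their midpoints from the S100A6 end, red where the adjusted p was below 0.05. S100A3, at 0.89, stands beside S100A4, at 0.20, and S100A2, at -0.41, and the cross marks S100A14, which was not tested.

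The 10 genes have 33 transcripts in the count table, of which 23 passed the count filter and 4 were called higher and 0 lower, beside 5.64% of 49857 transcripts called by edgeR, 3.57% higher and 2.07% lower. Of the 23, 19 had both dex libraries above both etoh libraries and 1 had both below, beside 22.8% and 24.4% of all transcripts tested. Transcripts of 1 gene share most of their sequence, and how reads that fit several were placed is not stated, so a transcript value is not independent of its neighbours. The called transcripts were S100P-001, S100A3-001, S100A13-203 and S100A16-008. The same test on libraries without dex replicate 1 or without etoh replicate 1 called 1 transcript, and 8 were called without dex replicate 2. S100A4 shows how evenly reads were spread: its 4 transcripts held between 24.1% and 26.03% of its reads in every library. Likewise S100A10-001, of 1202 bases, and S100A10-002, of 616 bases, each held between 48.8% and 51.2%.

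A few transcripts departed from that evenness. S100A16-010 held 7.57% and 8.91% of the S100A16 reads in dex, against 11.9% and 10.1% in etoh. In CPM it was at 11.9 and 11.8 in dex against 13.6 and 11.5 in etoh, with overlap, while the 3 other S100A16 transcripts were each higher in both dex libraries. S100A13-203 held 23.3% and 21.5% of the S100A13 reads in dex, against 11.1% and 17.7% in etoh. These shares rest on few reads, 41 and 37 in dex and 10 and 25 in etoh. The log2 fold change of S100A13-203 was 1.22 (SE 0.33, adjusted p of 0.023 by edgeR). The range over the S100A13 transcripts ran down to 0.18 (SE 0.29) for S100A13-201. S100A6-010, the shortest S100A6 transcript at 479 bases, had 111 and 91.2 CPM in dex against 57.3 and 93.0 CPM in etoh, so only etoh replicate 1 stood low. Differences between transcripts of a gene were not tested.

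**Figure D4:**
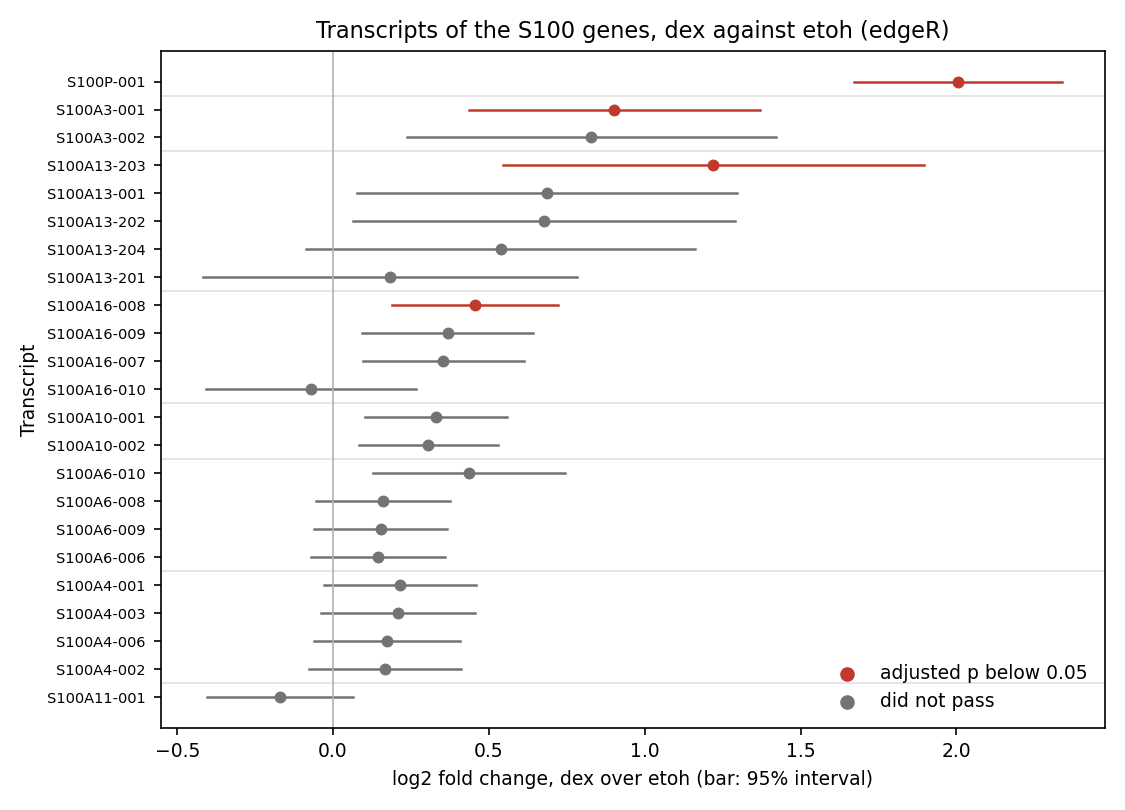
Log2 fold change, dex over etoh, with 95% intervals (edgeR) of the 23 tested S100 transcripts, grouped by gene and red where the adjusted p was below 0.05. S100A16-010 lies at -0.07 while the other S100A16 transcripts lie between 0.35 and 0.46.

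Of the 11 other S100 genes on the list, 0 passed the count filter, 7 had no read in any library, and S100A1, S100A5, S100A7A and S100A9 had at most 5 reads in a library. S100A8, S100A9 and S100A12, the members typical of myeloid cells, were thus at or near 0.

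Of 35 tested binding partners and receptors, 6 rose and 4 fell, beside 6.98% and 4.42% of all genes tested, with a median log2 fold change of 0.10 over the list. Without dex replicate 1 there were 2 higher and 2 lower, and without etoh replicate 2 there were 2 lower. AHNAK, a giant membrane scaffold that binds the S100A10 and annexin A2 complex, had 1263 and 1089 CPM in dex against 474 and 523 CPM in etoh, a log2 fold change of 1.26 (SE 0.10). ANXA2, the annexin partner itself, had 4006 and 3314 CPM in dex against 2770.4 and 2673 CPM in etoh, at 0.45 (SE 0.11, adjusted p of 0.0078 by edgeR). Per 100 reads of ANXA2, S100A10 had 8.50 and 9.59 reads in dex against 8.92 and 10.7 in etoh, so the ratio of the pair overlapped between groups.

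Both genes of the urokinase pair, which acts on the plasminogen that the S100A10 complex binds, were called lower. PLAU, the activator urokinase, had 65.5 and 63.5 CPM in dex against 98.3 and 95.9 CPM in etoh, and fell by 0.57 on the log2 scale (SE 0.11). Its receptor PLAUR had 59 and 67 reads in dex against 101 and 133 reads in etoh, and fell by 0.82 (SE 0.20). An opposite-strand gene, C10orf55, overlaps PLAU. The partners named for S100P and S100A6 did not pass. EZR, ezrin, was at 0.26 (SE 0.10), S100PBP, which encodes an S100P-binding protein, at -0.12 (SE 0.12) and CACYBP at -0.14 (SE 0.11). AGER had 1.42 and 2.15 CPM in dex against 1.33 and 1.35 CPM in etoh, at 0.45 (SE 0.40). EZR, S100PBP and CACYBP each overlap a counted gene on the opposite strand, and no source used here gives the strand setting. Over all libraries the overlapping gene had 1 read against 17155 for EZR, 4431 against 1769 for S100PBP and 642 against 6548 for CACYBP.

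Of 43 other tested genes with EF-hands, 9 rose and 0 fell, beside 6.98% and 4.42% of all genes tested, with a median log2 fold change of 0.12 over the list. The number higher was 5 without dex replicate 1 and with DESeq2, and 4 without etoh replicate 1. HPCAL1, a neuronal calcium sensor family member, had 65.3 and 64.5 CPM in dex against 26.6 and 28.8 CPM in etoh, a log2 fold change of 1.24 (SE 0.12). EHD4, which acts in endocytic recycling, rose by 0.66 (SE 0.11) and EFHD2, which binds actin, by 0.60 (SE 0.10). CHP1, a calcineurin-like regulator of sodium-proton exchange, rose by 0.43 (SE 0.10). EHD4 overlaps a counted clone-named gene on the opposite strand.

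Of 16 tested genes within 100 kb of a member, 4 rose and 0 fell, beside 6.98% and 4.42% of all genes tested. Without dex replicate 1 or with DESeq2, 2 rose. Around S100P, 3 of 7 tested neighbours rose, read against the same 6.98%. KIAA0232 had 175 and 169 CPM in dex against 90.7 and 78.2 CPM in etoh, at 1.04 (SE 0.11), and lies 84.2 kb from S100P. BLOC1S4, a subunit of a complex for lysosome-related organelles, lies 18.9 kb away and had 50.7 and 39.0 CPM in dex against 19.9 and 30.3 CPM in etoh. The clone-named AC093323.3 had 29.6 and 24.5 CPM in dex against 16.1 and 20.9 CPM in etoh, and RP11-539L10.3 overlaps it on the opposite strand. The 7 neighbours of S100P had log2 fold changes between 0.04 and 1.04, all under the 2.01 of S100P. Around the chromosome 1 cluster 1 of 8 rose, NPR1, a natriuretic peptide receptor, with 4.17 and 3.77 CPM in dex against 2.15 and 1.51 CPM in etoh. Around S100A10 and S100A11 0 of 1 did, THEM4, at 0.21.

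**Figure D5:**
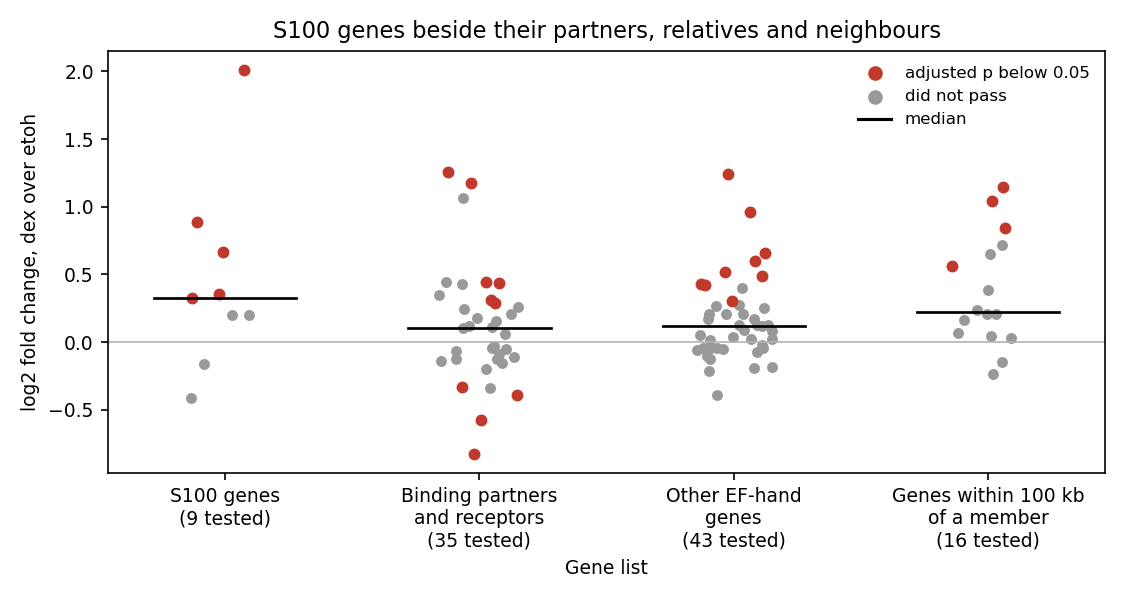
Log2 fold change, dex over etoh, of each tested gene of 4 lists, red where the edgeR adjusted p was below 0.05, with a black line at each list's median. The S100 genes have a median of 0.32 and S100P lies alone at 2.01, above every gene of the other 3 lists.

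Profiles over the 4 libraries were compared by the root mean square difference of log2 CPM after centring each gene on its own mean. The genes closest to S100P were THBD at 0.06, IL6R at 0.07 and LHX6 at 0.08. THBD, thrombomodulin, had 255 and 265 CPM in dex against 62.5 and 60.8 CPM in etoh. LHX6 had only 1.93 and 2.06 CPM in dex against 0.512 and 0.505 CPM in etoh, so its likeness rests on few reads. For S100A11, the member with the smallest p of those lower in dex, CISD2 and ALDH5A1 were closest at 0.01 each, and both overlap a counted gene on the opposite strand.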

How the data were processed

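RNA counts were available for 2 dex and 2 etoh libraries. The deposited files hold raw counts of aligned reads per transcript for 119207 transcript names, 1 file per library, with unaligned reads in an unnamed row. The tools named per the submitters' processing notes are Bowtie, CASAVA, DESeq2 and SAMtools, and no source used here gives their versions and settings, the genome build or the strand setting. Unaligned reads were 17.2% and 18.7% of reads in dex and 18.5% and 17.2% in etoh and were kept out of totals and tests. No library pair was a duplicate: the gene-wise chi-square per degree of freedom came to 5.37 for the dex pair, 6.97 for the etoh pair and 15.2 or more across groups.

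Here counts were summed over all transcripts of a gene identifier, and CPM and RPKM were scaled to each library's aligned total. Genes were kept by filterByExpr (minimum count 10) and tested with edgeR 4.0.16 in R 4.3.3: TMM factors, quasi-likelihood test, two-sided, dex over etoh, prior count 0.125, Benjamini-Hochberg adjustment over 14777 genes, threshold 0.05. Transcripts were fitted the same way over 49857. The SE is the absolute log2 fold change over the square root of F. The biological coefficient of variation was 8.08%. Counting floors cover counting error only, since reads carry no molecular identifiers. In simulated gene counts, with spread taken from these same libraries, 79.0% of 2-fold and 100% of 4-fold changes were called. Changes under 2-fold, the size of every called S100 gene except S100P, were not simulated. Positions, overlaps and shared 36-base windows came from GENCODE 29 by gene identifier, promoters from RefSeq.

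The members and lists were chosen with earlier results of these data known. Named genes were all members, up to 4 called genes with the smallest p in each list, a few fixed partners and check genes, and the 3 most similar profiles for the most clearly higher and lower member; 1 gene that this rule names is not reported here. Alternatives were DESeq2 1.42.0, limma-voom (limma 3.58.1), DESeq2 size factors, library totals, no count filter, 1 CPM in 2 libraries, a replicate block, the most counted transcript per gene and removal of each library. A group left with 1 library took its spread from the other.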

Additional observations from a re-analysis of the deposited data

How the results depend on the processing

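S100P kept its direction and call in all 12 alternatives, and none of the 9 tested S100 genes changed direction in the alternatives run for it, which were 11 for S100A2 and 12 for each of the others. S100A14 was not tested. A filter of 1 CPM in 2 libraries, no filter on counts, library totals, DESeq2 size factors and limma-voom each called 5 S100 genes, as in the report. DESeq2 called 999 genes (633 higher, 366 lower) instead of 1684, 2 S100 genes (S100P and S100A10), 1 S100 transcript, 5 other EF-hand genes and 2 genes within 100 kb of a member. Leaving out each library in turn gave between 1111 and 1965 genes called, with 406 to 806 lower and 705 to 1159 higher. It gave 1 to 5 S100 genes and 1 to 8 S100 transcripts called higher. It gave 2 to 7 partners and receptors higher and 2 to 3 lower, 4 to 9 other EF-hand genes higher, and 2 to 4 genes within 100 kb of a member higher. The log2 ratio of the S100 share of aligned reads, 0.22, lay between 0.14 and 0.32 without each library. The cause of these shifts was not tested.

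With the replicate number as a block, 1558 genes and 3 S100 genes were called, with S100A16 (adjusted p = 0.069 by edgeR) and S100A10 (adjusted p = 0.076 by edgeR) no longer passing. Deviations of same-numbered libraries correlated at -0.08 across 14777 genes, and nothing in the labels pairs them. With 2 libraries a group, changes near the size of S100A6 and S100A4 did not pass the test, and at this depth S100A2 and S100A14 rest on few reads.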
